A study of Mus musculus with 6 samples.

Results

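The 10 genes described here mark long-term blood stem cells or act in keeping them: Procr, Fgd5, Hlf, Mecom, Prdm16, Ctnnal1, Mllt3, Gprasp2, Neo1 and Trim47. They were chosen by name, and each had 1 line among the 22381 genes of the deposited table. RNA was sequenced from LSK cells, the bone marrow fraction without mature lineage markers and with Sca-1 and c-Kit. All samples came from C57BL/6 mice aged 8 to 12 weeks, 3 samples labelled Tgif1-/-, which by that label lack the homeodomain repressor Tgif1, and 3 samples labelled wild type (WT). The table gives 1 FPKM value per group (fragments scaled by transcript length and by the mapped total), with no value per sample, so no SD or n goes with a level and the depth is unknown. The labels do not say whether samples of a group came from separate mice, so p-values may cover technical spread only, nor how Tgif1 was disrupted.

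Long-term stem cells are the small share of LSK cells that can rebuild blood for the life of a recipient. They divide rarely, and the remaining LSK cells are multipotent progenitors that pass on to lymphoid, myeloid and erythroid fates. Surface receptors such as Procr are used to sort stem cells, reporter alleles of Fgd5 and Ctnnal1 label them, and the nuclear factors Hlf, Mecom, Prdm16 and Mllt3 are needed to keep them or to expand them. By its title the study is about how Tgif1 bears on the resting state and self-renewal of such cells, and the comparison asks whether their identity genes differ between the groups.

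None of the 10 genes differed between the groups past the threshold of the authors' Cuffdiff test, which was completed for 7 of them. Trim47 had the largest difference upward. It stood at 15.2 FPKM in samples labelled Tgif1-/- and 10.7 FPKM in those labelled wild type. Hlf, Mllt3, Mecom and Fgd5 each lay within a ratio of 0.949 to 0.996 of the wild-type value. Of these, Hlf and Mllt3 had a failed test and no error, and the 95% interval for Fgd5 ran from 0.602 to 1.65. Procr and Prdm16 were listed lower, and Ctnnal1 and Gprasp2 higher, by ratios that their errors did not separate from 1. Neo1 was at most at 0.261 FPKM in either group.

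Of the 10 genes, 7 had a completed test, 2 had a failed test (Hlf and Mllt3) and 1 had too few reads to test (Neo1). A gene was called where the q in the authors' deposited table was at or under 0.05, which held for 0.662% of the 10730 tested genes and for 0 of these 7. At an unadjusted p under 0.05 there was 1 of the 7, Trim47, against 5.41% of all tested genes, and 1.85% of them on the higher side. The median log2 ratio of group values (Tgif1-/- over wild type throughout) was -0.01 over the 7 tested genes and -0.05 over all 10, beside -0.03 over all tested genes with a ratio. Of the 7, 3 were listed higher and 4 lower, and 57.4% of all tested genes with a ratio were lower.

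Some measurements of the whole table bear on these values. Tgif1 itself was at 88.6 FPKM under the Tgif1-/- label and 71.5 FPKM under the wild-type label, with a failed test, so its value does not bear out the label and each direction here is one between groups as labelled. The genes of the LSK gate were present, with c-Kit (Kit) at 193 and 202 FPKM and Sca-1 (Ly6a) at 120 and 88.9 FPKM in the same order. Of the mature lineage genes, Itgam stood at 35.4 and 34.0 FPKM, and the T cell gene Cd3e at 0.134 and 0.250 FPKM. Summed over 8 markers each, mast cell and basophil genes came to 389 and 157 FPKM (4 of 8 called higher), B cell genes to 58.2 and 120 FPKM (4 of 8 called lower), megakaryocyte genes to 313 and 252 FPKM, erythroid genes to 364 and 271 FPKM, and neutrophil genes to 70.9 and 141 FPKM (0 called in each of the last 3). Among all tested genes, 0.289% were called higher and 0.373% lower. The erythroid difference was that of the carbonic anhydrase gene Car1, at 281 and 187 FPKM, and the other 7 erythroid genes summed to 83.4 and 84.4 FPKM. In the megakaryocyte list Ppbp went the other way from the sum, at 4.61 and 9.54 FPKM. In the B cell list Cd79b stood nearly level, at 27.8 and 27.6 FPKM. All 8 neutrophil genes were listed lower. Of the 7 tested, 5 had an unadjusted Cuffdiff p under 0.05, beside 3.55% of all tested genes on the lower side. At that p, 2 of the 7 tested megakaryocyte genes were higher and 1 lower. Of the 8 erythroid genes 1 was higher at that p, beside 1.85% of all tested genes. The share of each cell type among the sorted cells was not measured, so fewer cells of a type and less RNA per cell cannot be told apart.

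Mecom and Prdm16, a pair of the nuclear factors, are sister genes whose long products both open with a PR domain, and their promoters share a stretch of sequence that no other promoter in the reference set holds. The windows below run from 250 bases before to 50 bases after the RefSeq start site (build GRCm38.p6, minus strand, read in the direction of transcription), with the shared run in capitals. The Mecom window is chr3:30509710-30510009, at the upstream of its 2 listed starts, and the Prdm16 window is chr4:154636824-154637123.
Mecom: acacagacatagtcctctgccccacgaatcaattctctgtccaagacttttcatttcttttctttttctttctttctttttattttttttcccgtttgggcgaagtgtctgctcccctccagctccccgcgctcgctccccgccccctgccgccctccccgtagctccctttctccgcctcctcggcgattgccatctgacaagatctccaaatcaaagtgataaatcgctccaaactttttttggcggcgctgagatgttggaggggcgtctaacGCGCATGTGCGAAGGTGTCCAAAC
Prdm16: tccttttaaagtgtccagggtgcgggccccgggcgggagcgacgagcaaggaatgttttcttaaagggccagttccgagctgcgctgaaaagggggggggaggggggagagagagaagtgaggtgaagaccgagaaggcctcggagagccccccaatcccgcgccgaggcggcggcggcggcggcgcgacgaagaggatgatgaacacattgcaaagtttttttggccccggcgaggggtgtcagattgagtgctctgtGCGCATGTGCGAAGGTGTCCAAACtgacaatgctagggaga
The run has 24 bases, at positions 277 to 300 of the Mecom window and 260 to 283 of the Prdm16 window, counted from the window's first base, so it lies after the start site in both. Of 32851 promoter windows of that length, 2 held it on either strand, these 2. Over 64 pairs of windows from different identity genes, the longest shared run was otherwise at most 13 bases, with a median of 9. The run was found by comparing the windows and is a description of the reference sequence, not of a measured site.

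The 12 promoter windows of the 10 genes were also searched for TGTCA, the core word that Tgif1 binds and that it shares with the Meis factors, on both strands (TGTCA or TGACA). It was found in 7 windows (58.3%), belonging to Fgd5, Hlf, Mecom, Mllt3 and Prdm16, and in 45.4% of all windows. The longer word CTGTCA, which contains it, was found in 3 of the 12 and in 19.2% of all, and CTGTCAA in 0 of the 12 and in 3.55% of all. The Trim47 window held none of these words. A match says only that the letters are there.

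**Figure D1:**
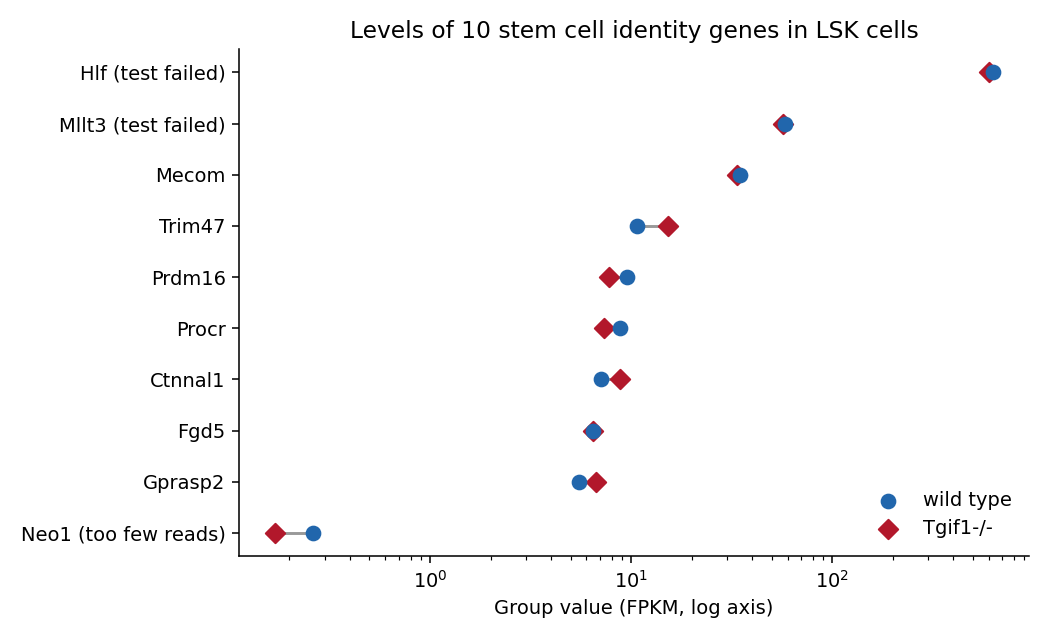
FPKM of the 10 genes under the Tgif1-/- label (red diamonds) and the group labelled wild type (blue circles), on a log axis, 1 value per group and gene. The values run from 0.170 FPKM for Neo1 to 632 FPKM for Hlf, while the groups lie close together for most genes.

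The levels of the 10 genes were spread far more widely than the differences between groups. Hlf led in both groups, followed by Mllt3 and Mecom. The other genes except Neo1 formed a close set of 6, from 5.52 to 10.7 FPKM under the wild-type label and from 6.47 to 15.2 FPKM under the Tgif1-/- label. Within that set Trim47 ranked first in both groups, and the order of the rest changed between groups: Prdm16, Procr, Ctnnal1, Fgd5 and Gprasp2 in wild type, and Ctnnal1, Prdm16, Procr, Gprasp2 and Fgd5 in the other group. The table gives no error for a single level, so neighbours in this order cannot be separated.

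Procr encodes the endothelial protein C receptor, a surface protein that binds activated protein C and is used to sort long-term stem cells. It lies on chromosome 2 (ENSMUSG00000027611, positions 155751117 to 155755471 in GENCODE M21, GRCm38, the build of all gene positions here). It was at 7.32 FPKM under the Tgif1-/- label and 8.82 FPKM under the wild-type label. The log2 ratio was -0.27 and its implied standard error 0.25, the error that follows from the deposited test statistic, and p was 0.274 in the authors' deposited table. The 95% interval of the ratio ran from 0.595 to 1.16, so a fall to that lower bound or a small rise lay inside it. Neo1, the other surface receptor, binds netrins and RGM proteins and acts as a co-receptor in BMP signalling (ENSMUSG00000032340, chromosome 9, positions 58874687 to 59036441). It was at 0.170 and 0.261 FPKM, below 1 FPKM in both groups and at percentile 36.3 of all genes by mean level. With so few reads its log2 ratio of -0.62 (interval of the ratio 0.345 to 1.23) became -0.11 with 1 FPKM added to each value.

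Partners of the receptors gave no called gene. Among 7 genes of the protein C system, 4 were tested, all 4 listed higher. The protease gene Adam17, whose product sheds the protein C receptor from the surface, stood at 111 and 90.5 FPKM (the authors' deposited table has p = 0.0360 and q = 0.809). Pros1, which encodes the cofactor protein S, stood at 3.42 and 2.18 FPKM (p = 0.0765 by Cuffdiff in the authors' deposited table). The listed ligands and partner receptors of Neo1 were all under 1 FPKM in both groups, among them Rgmb at 0.142 and 0.331 FPKM and Rgma at 0.0434 FPKM and listed at 0, and the sister receptor Dcc was listed at 0 in both.

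Endothelial cells also use Procr, Fgd5 and Mecom, so their markers were read beside these genes. Of 8 endothelial markers 5 were under 1 FPKM in both groups. The endothelial cadherin Cdh5 was at 0.0413 and 0.0980 FPKM, the VEGF receptor Kdr at 0.183 and 0.196 FPKM, and Sox17 was listed at 0 and at 0.0830 FPKM. The list sum of 81.3 and 74.4 FPKM came mostly from Pecam1 and Emcn, which blood cells express too.

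Hlf is a PAR bZIP transcription factor of stem cells (ENSMUSG00000003949, chromosome 11, positions 90336536 to 90390895). It was by far the most abundant of the 10, at 599 FPKM under the Tgif1-/- label and 632 FPKM under the wild-type label, percentile 99.0 of all genes by mean level. Its wild-type value was 10.8 times that of Mllt3, the next in order. The log2 ratio was -0.08, and the failed test leaves it without an error or a p-value. Failure was common at such levels: of 2857 genes whose mean reached 50 FPKM, 1012 (35.4%) had a failed test, against 14.0% of all genes. The related bZIP genes were much lower and none was called, with Dbp at 9.47 and 11.2 FPKM, Tef at 8.76 and 9.80 FPKM, and Nfil3, a repressor on the same DNA sites, at 2.92 and 3.95 FPKM. All 3 were listed lower, with p in the authors' deposited table of 0.246, 0.695 and 0.260.

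Mecom encodes the zinc finger factor Evi1 and the longer form that carries the PR domain (ENSMUSG00000027684, chromosome 3, positions 29951296 to 30548008). It was at 33.5 FPKM under the Tgif1-/- label and 34.9 FPKM under the wild-type label, for a log2 ratio of -0.06. Its implied standard error of 0.05 was the smallest of the 7, and 3 of the 534 tested genes at like expression, Mecom included, had an error that small. The deposited p was 0.301 in the authors' deposited table, and the 95% interval of the ratio ran from 0.894 to 1.04. Where the error was set to at least the median of genes at like expression (0.20), p was 0.775. The value is one for the whole gene and does not separate the short form from the long form. The antisense gene Mecomos covers 81 of its 12427 exon bases in GENCODE M21, and the table quantifies Gm10258 in the same block, at 0.575 and 1.02 FPKM.

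Prdm16, the sister gene, also works in brown fat and palate (ENSMUSG00000039410, chromosome 4, positions 154316125 to 154636873). It was at 7.75 FPKM under the Tgif1-/- label and 9.52 FPKM under the wild-type label. The log2 ratio was -0.30 and its implied standard error 0.34, and p was 0.389 in the authors' deposited table. The interval of the ratio, 0.510 to 1.30, was wider than that of Mecom. An opposite-strand gene, B230104I21Rik, covers 109 of its 9321 exon bases in GENCODE M21, and the labels do not say whether counting used strand. The promoter pair shown above thus belongs to genes whose levels were both listed lower, neither beyond its error. Their corepressor partners gave no call: Ctbp1, Ctbp2 and the histone methyltransferase genes Ehmt1, Ehmt2 and Suv39h1 were all 5 listed lower, with log2 ratios from -0.19 to -0.02. The smallest p-values of these 5 in the authors' deposited table were 0.313 for Ehmt2 (33.3 and 35.7 FPKM) and 0.371 for Ctbp1 (33.8 and 38.6 FPKM).

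Mllt3, also known as AF9, reads acylated histones and recruits the super elongation complex and the methyltransferase Dot1l (ENSMUSG00000028496, chromosome 4, positions 87769925 to 88033364). It was at 56.8 FPKM under the Tgif1-/- label and 58.5 FPKM under the wild-type label, for a log2 ratio of -0.04 with no error, since the test failed. Its relative Mllt1 stood at 16.4 and 17.3 FPKM. Of 9 listed partners, 5 were tested and 0 called. Ell2, an elongation factor, stood at 9.25 and 6.82 FPKM (the authors' deposited table has p = 0.0973), and Dot1l at 12.8 and 14.8 FPKM (the authors' deposited table has p = 0.0987). Other partners, Aff1, Aff4, Cdk9 and Mllt10, had failed tests like Mllt3.

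Fgd5 activates the small GTPase Cdc42 and marks stem cells in reporter mice (ENSMUSG00000034037, chromosome 6, positions 91978878 to 92076004). It was at 6.47 FPKM under the Tgif1-/- label and 6.49 FPKM under the wild-type label, the closest pair of values among the 10. The error was not small, however: the implied standard error of 0.37 gave an interval of the ratio from 0.602 to 1.65 (p = 0.988 in the authors' deposited table). Equal levels were thus not shown, only an estimate near 1. Of its 5 relatives, Fgd4 was the most abundant, at 57.3 and 63.3 FPKM (the authors' deposited table has p = 0.346), and Fgd3 was at 5.38 and 4.84 FPKM. Cdc42 itself stood at 302 and 293 FPKM with a failed test.

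Ctnnal1, or alpha-catulin, is a cytoskeletal protein related to alpha-catenin and vinculin (ENSMUSG00000038816, chromosome 4, positions 56810935 to 56865188). It was at 8.83 FPKM under the Tgif1-/- label and 7.10 FPKM under the wild-type label. The log2 ratio was 0.31 and its implied standard error 0.39, with an interval of the ratio from 0.735 to 2.10 and p = 0.417 in the authors' deposited table. Ctnna1, the catenin of most tissues, stood at 21.2 and 21.6 FPKM and vinculin (Vcl) at 15.0 and 15.7 FPKM, while Ctnna2 and Ctnna3 were under 1 FPKM in both groups.

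Gprasp2 belongs to a family that sorts G protein-coupled receptors after uptake (ENSMUSG00000072966, chromosome X, positions 135839034 to 135844730). It was at 6.72 FPKM under the Tgif1-/- label and 5.52 FPKM under the wild-type label. The log2 ratio of 0.29 had the largest implied standard error of the 7, 0.44, with an interval of the ratio from 0.670 to 2.22 and p = 0.516 in the authors' deposited table. Its neighbour and relative Bhlhb9 overlaps 376 of the 4540 exon bases of Gprasp2 on the same strand in GENCODE M21. The authors' deposited table instead lists these genes in separate blocks that do not overlap, and a sharing of reads between them was not tested. Bhlhb9 stood at 20.3 and 24.4 FPKM, in the other direction (p = 0.231 in the authors' deposited table). Of the 8 relatives, 3 were listed higher and 5 lower and 0 were called, with Gprasp1 at 34.7 and 34.1 FPKM and Armcx6 at 6.05 and 4.99 FPKM.

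Trim47, a ubiquitin ligase gene of the tripartite motif family, was the identity gene with the smallest p (ENSMUSG00000020773, chromosome 11, positions 116105752 to 116127210). Its values of 15.2 and 10.7 FPKM gave a log2 ratio of 0.51, an implied standard error of 0.18 and an interval of the ratio from 1.11 to 1.83. In the authors' deposited table p was 0.00551 and q was 0.332, so it failed the correction over all tested genes. With the error set to at least the median of genes at like expression, p rose to 0.0319 and adjusted p to 1.00. The neighbouring gene Trim65 overlaps it: the table lists both under 1 shared block, and 225 of the 2735 exon bases of Trim47 (8.23%) also belong to Trim65 on the same strand in GENCODE M21. Trim65 was at 24.4 and 22.3 FPKM (log2 ratio 0.13, p = 0.493 in the authors' deposited table), and the way the authors divided shared reads is not stated in the labels. The mast cell and megakaryocyte sums given above were also higher under the Tgif1-/- label, as was Car1, and their part in the value of Trim47 was not tested.

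**Figure D2:**
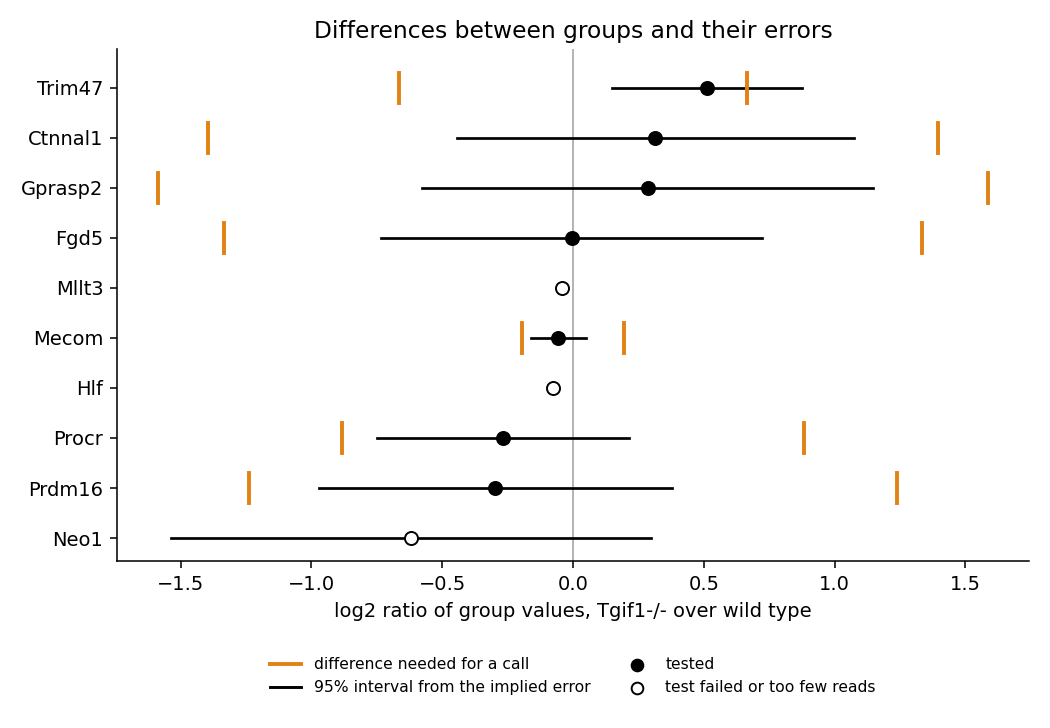
Log2 ratio of group values (Tgif1-/- over wild type) for the 10 genes, with the 95% interval from the implied standard error and, in orange, the size that the deposited threshold would have required. Trim47 alone has an interval clear of 0, and its point at 0.51 lies inside its orange mark at 0.66.

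The size of a difference that could have been called varied widely between the 7 tested genes. The largest p of a called gene in the authors' deposited table was 0.000318. At that p, and with its own implied error, Mecom would have needed a ratio of 1.14-fold, Trim47 1.58-fold, Procr 1.85-fold, Prdm16 2.36-fold, Fgd5 2.52-fold, Ctnnal1 2.63-fold and Gprasp2 3.00-fold. An estimated doubling of Prdm16, Fgd5, Ctnnal1 or Gprasp2 would therefore not have been called. Their errors were 1.21 to 1.44 times the median of tested genes at like expression, while that of Mecom was 0.276 times and that of Trim47 0.773 times.

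**Figure D3:**
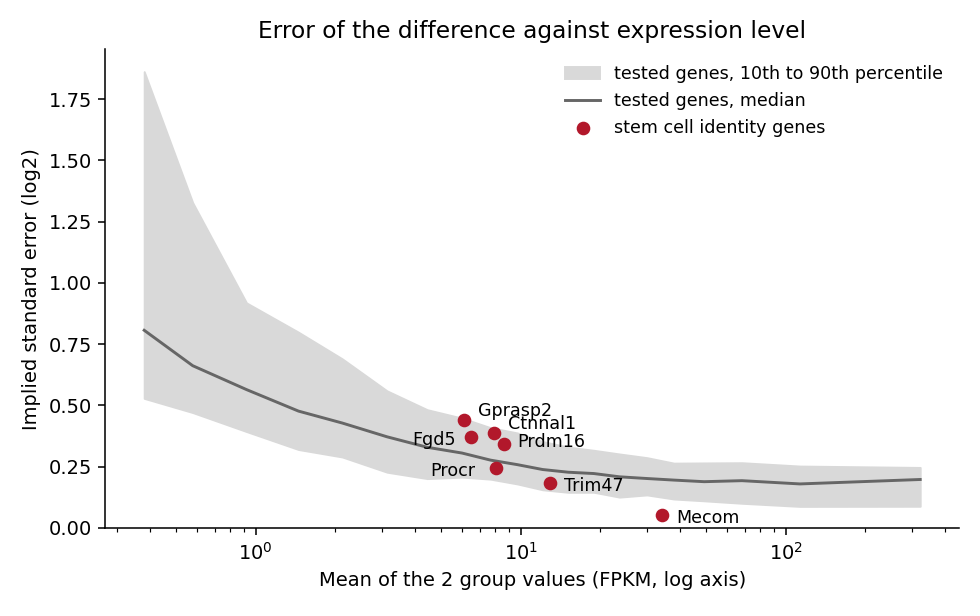
Implied standard error of the log2 ratio against the mean of both group values on a log axis, for the 7 tested identity genes (red) over the median and the 10th to 90th percentile of all tested genes in 20 expression bins. Mecom, at 0.05, lies below the band, and Gprasp2, at 0.44, lies near its upper edge.

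Of 42 other genes known from long-term stem cells, 29 were tested and 13 had failed tests. Of the 29, 1 was called, beside 0.662% of all tested genes. Vldlr, a lipoprotein and reelin receptor, was called higher, at 30.3 and 20.7 FPKM, with a log2 ratio of 0.55, an implied standard error of 0.15 and q = 0.0329 in the authors' deposited table. That Cuffdiff call was lost where the error was set to at least the median of genes at like expression, with an adjusted p of 0.941. Another 3 of the 29 were lower at an unadjusted p under 0.05 without being called, against 3.55% of all tested genes on the lower side: the RNA-binding protein gene Msi2 at 186 and 212 FPKM, the immediate early factor Egr1 at 10.9 and 14.5 FPKM and the ETS factor Erg at 81.6 and 93.3 FPKM (q = 0.431, 0.483 and 0.540 in the authors' deposited table). On the higher side the next smallest p after Vldlr, 0.157 in that table, belonged to the adhesion gene Esam at 6.96 and 5.09 FPKM. The median log2 ratio was -0.02 over the 42. The surface receptor Slamf1, which sorts stem cells with Procr, was at 4.02 and 4.08 FPKM and Hoxb5 at 0.737 and 0.796 FPKM, both named here after their values were seen.

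Genes of multipotent and lineage-primed progenitors were listed lower in 16 of 20 cases and higher in 4, beside 57.4% lower among all tested genes with a ratio. Their median log2 ratio was -0.18, but 12 had failed tests. Cuffdiff called 0 of the 7 tested, beside 0.662% of all tested genes. Of these 7, 2 were lower at an unadjusted p under 0.05, again beside 3.55% of all tested genes: the lymphoid polymerase gene Dntt at 302 and 437 FPKM and the cytokine receptor gene Il7r at 8.84 and 13.6 FPKM (q = 0.165 and 0.522 in the authors' deposited table). The only tested genes on the higher side were Cebpa, at 13.1 and 11.3 FPKM, and Cd48, a surface protein that long-term stem cells lack, at 159 and 154 FPKM, with p = 0.412 and 0.838 by Cuffdiff in the authors' deposited table. The lowest log2 ratios of the list, from -0.96 to -0.49, were those of the lymphoid genes Rag1, Rag2, Il7r, Dntt and Ccr9. Those of Cd34, Cd27 and Satb1 lay from -0.05 to -0.01, so the list did not move as 1. Rag1, Rag2, Ccr9, Cd34, Cd27 and Satb1 had failed tests and are named here after their values were seen. The difference between the progenitor list and the identity genes was not tested.

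**Figure D4:**
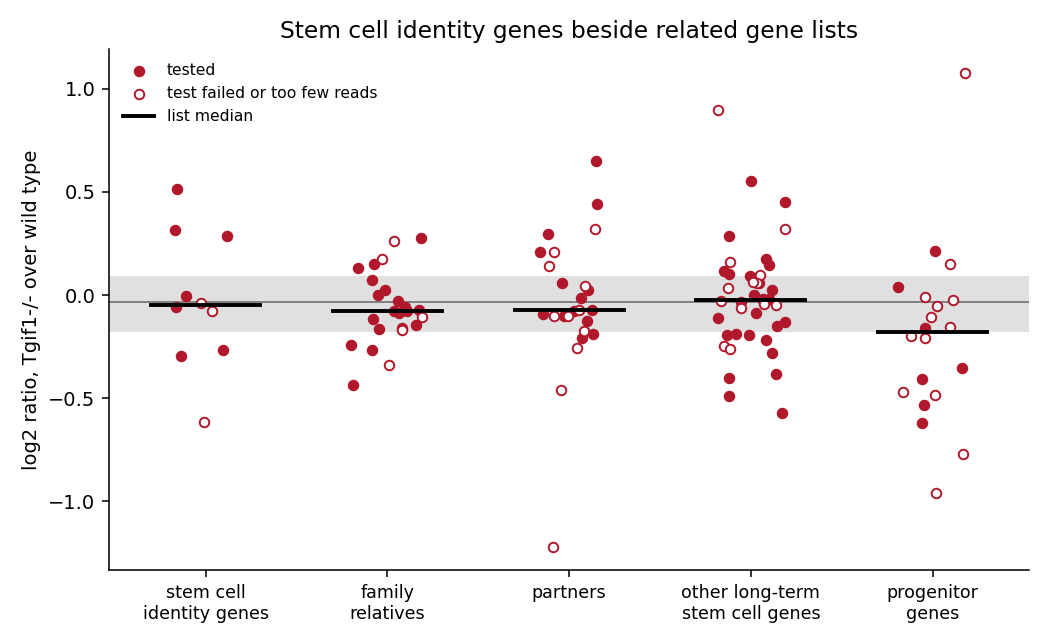
Log2 ratios (Tgif1-/- over wild type) of the 10 identity genes, their family relatives, their partners, other long-term stem cell genes and progenitor genes, 1 point per gene with a ratio, filled where tested. The grey band and line are the quartiles and median of all tested genes, and black bars are list medians, from -0.18 for progenitor genes to -0.02 for other long-term stem cell genes.

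Over all family relatives, 25 genes were listed and 19 tested, 0 were called by Cuffdiff and 0 had an unadjusted p under 0.05, with a median log2 ratio of -0.08 and a range from -0.44 to 0.28. Over all partners, 28 genes were listed and 14 tested, 0 were called and 1 had an unadjusted p under 0.05 (Adam17), with a median of -0.07. Among all tested genes, 0.662% were called and 5.41% had an unadjusted Cuffdiff p under 0.05. At such shares, few or none are to be looked for in lists this small.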

How the data were processed

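LSK RNA, about 200 ng per the labels' protocols, was sequenced in 6 samples. The submitters' processing notes name TopHat and Cuffdiff, without versions, and the build hg19, although the identifiers are mouse identifiers. The deposited table gives, per the file headers, 1 FPKM value per group and the authors' p-values and q-values. It also gives the test statistic, a score per the file headers. Log2 ratios were recomputed from the FPKM values, since the deposited fold change has wild type on top. The implied standard error is the log2 ratio divided by the deposited statistic, and intervals are normal 95% intervals from it. It comes from the authors' model, and no spread between samples was measured here. Deposited p-values of failed tests are set to 1 and were not used. Genes were matched by symbol in the table and by Ensembl identifier in GENCODE M21 (GRCm38). The table's own positions follow another mouse build, which the labels do not name, and are not printed. Promoters are from RefSeq (GRCm38.p6), and all 10 genes matched, with 12 windows. RefSeq proteins were not used here.

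All 10 genes were named by rule. Relatives, partners and other lists were named by call or by smallest p. The genes and lists were chosen with earlier results of these data known. Alternatives were pseudocounts of 0.1 and 1 FPKM, centring, other thresholds, minimum levels and an error floor (the median error in 20 expression bins). The calculation was tested on simulated data. Python 3.11.15, pandas 2.3.3, numpy 2.4.6 and scipy 1.17.1 were used.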

Additional observations from a re-analysis of the deposited data

How the results depend on the processing

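The count of called identity genes was 0 at q thresholds of 0.01, 0.05 and 0.1, with tested genes limited to at least 1 or 5 FPKM in a group, with 1 line per symbol and with the error floor. Trim47 was the 1 gene at p under 0.01, 0.05 and 0.1, and also with the floor. Centring on the median of tested genes, which was -0.03 in log2 and so raised every ratio, turned Fgd5 from -0.0055 to 0.026, within its error. With a pseudocount of 1 FPKM the log2 ratio of Neo1 went from -0.62 to -0.11. The median over the 10 genes ran from -0.05 to -0.01 across its alternatives. Of 51 alternative values, 49 were labelled the same, 1 reversed (Fgd5 when centred) and 1 moved (Neo1 with 1 FPKM added). For a tested gene under a pseudocount or centring, the same meant only that the direction held, since no p was recomputed. Under the error floor it meant that the side of the threshold held. For an untested gene the direction had to hold and the move had to be smaller than the implied error. Hlf and Mllt3 have no implied error, so the median error of all tested genes was used. The median over the 10 genes had to move by less than the median error of the tested identity genes. The counts did not change. Many of these labels could not have come out otherwise. The same pseudocount on both values cannot turn a direction, so tested genes had to stay the same there. A stricter q or a wider error cannot raise a count of 0, and each identity gene had 1 line anyway. Leaving out each replicate was not run, since the table holds group values only. No paired analysis was possible because the columns carry no replicate numbers. The unknown depth limits what can be said of Neo1.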
